A study of Mus musculus with 6 samples.

Results

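The genes described here are 10 members of the growth hormone and insulin-like growth factor (IGF) axis, taken by symbol from the annotation of the array's probes: the growth hormone receptor (Ghr), the transcription factor Stat5b, its feedback genes Socs2 and Cish, the hormone Igf1, and its carriers Igfals, Igfbp1, Igfbp2, Igfbp3 and Igfbp4. They were 10 of 18004 genes measured and had 18 of the 22311 probes that passed the background filter. All 18 of their probes were well above background on all 6 arrays, so none passed through the signal of 1 genotype alone. The livers came from C57Bl/6 mice aged 23 months, 3 wild-type and 3 Itpr2 KO, which the labels place in a survival cohort without any treatment. Itpr2 encodes inositol trisphosphate receptor type 2, a channel that releases calcium from the endoplasmic reticulum. The labels give no sex, do not say how the gene was disrupted or in which cells, and do not say whether the genotypes were littermates. Each array holds RNA of 1 mouse.

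Growth hormone from the pituitary binds its receptor on hepatocytes, and the kinase JAK2 bound to that receptor phosphorylates STAT5B, which enters the nucleus and drives Igf1, Igfals and the feedback genes Socs2 and Cish. The liver is the main source of circulating IGF1, most of which travels bound to IGFBP3 and the acid-labile subunit encoded by Igfals. IGFBP1 and IGFBP2 follow feeding and insulin more closely, and insulin represses Igfbp1 through the transcription factor FOXO1.

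A level is the log2 signal of a probe less the 75th percentile of its array, and a change is the knockout mean less the wild-type mean on that log2 scale. The probe with the highest mean stands for its gene unless several are named, and signals of different genes' probes are not read as relative abundance. From 57.6% to 59.6% of an array's probes stood well above background and 0 spots were saturated. The number of arrays, 3 a genotype, limits the precision. The targeted gene, Itpr2, read 3.04, 3.07 and 3.08 in wild type and 2.54, 2.38 and 2.20 in the knockout, a change of -0.69 ± 0.13 (SE; limma adjusted p = 0.813). The genotypes did not overlap there, but the place of that probe relative to the disrupted part of the gene is not stated in the labels. All 10 hepatocyte markers, albumin among them, were well above background on every array. Their mean was higher in the knockout for 9 of 10, with a median change of 0.21, and their summed level ran from 10.84 to 11.01 in wild type and from 10.87 to 11.40 in the knockout, highest on KO 3. Skeletal muscle markers set WT 1 and KO 3 apart, with summed levels of 6.56 and 6.60 against -1.04 to -0.55 on the other arrays, and KO 3 also had the highest sum of fat cell markers, at 4.05. Kupffer cell markers had a lower mean in the knockout for 10 of 10 genes, and their summed level ran from 7.17 to 8.15 in wild type and from 6.80 to 7.23 in the knockout. In whole liver, fewer cells of a type and less RNA per cell cannot be told apart.

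Of the 10 axis genes, 0 passed the threshold of an adjusted p under 0.05 in limma and 0 reached 0.05 before adjustment. Over all genes 0.00555% passed the adjusted threshold, which is the single gene Mansc4, named after its value was seen, and 6.12% reached 0.05 before adjustment. Counted probe by probe, 0 of the 18 probes of the axis passed the adjusted threshold, against 0.00448% of all probes, although 2 of the 4 Igf1 probes had an unadjusted p under 0.05. The mean was higher in the knockout for 7 of the 10 genes and lower for 3, with a median change of 0.24, beside a median of 0.21 over the hepatocyte markers and 0.022 over all genes, of which 9734 were higher and 8270 lower. The part of the hepatocyte markers' shift in the axis values was not tested. That split over all genes turned to 7099 higher and 10905 lower when arrays were centred on their median. Igf1 and Stat5b were the 2 members whose genotypes did not overlap, both higher in the knockout, where 6.89% of all genes lay wholly higher and 5.14% wholly lower. With 3 against 3 mice, an exact two-sided permutation test of a single value cannot give a p under 0.1.

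**Figure D1:**
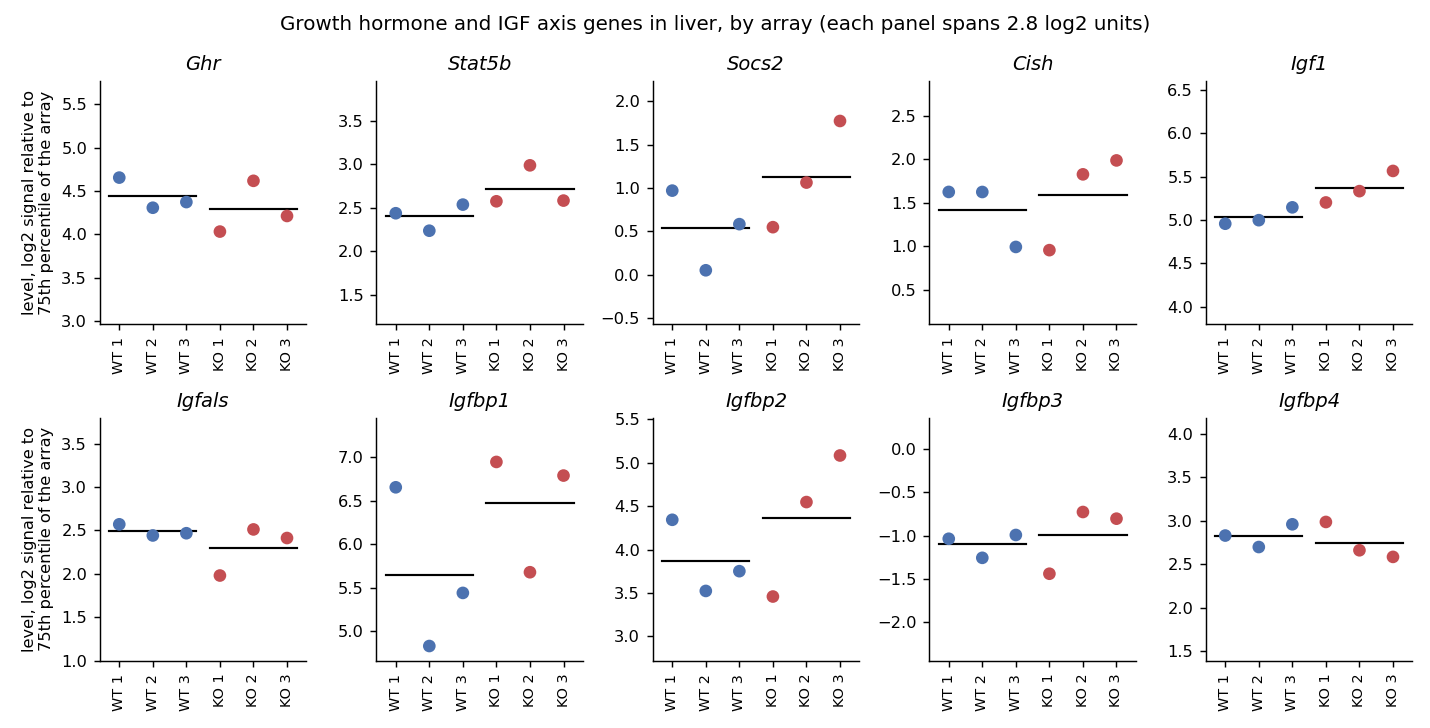
Level of each axis gene (log2 signal relative to the array's 75th percentile, vertical axis) in the 3 wild-type (blue) and 3 knockout (red) livers, with lines at the genotype means; every panel spans the same number of log2 units. Igf1 and Stat5b are the panels in which all knockout points lie above all wild-type points, and Igfbp1 runs from 4.83 to 6.95.

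Ghr, the receptor through which growth hormone acts, overlapped between the genotypes. Its levels were 4.65, 4.31 and 4.37 in the wild-type livers and 4.03, 4.62 and 4.21 in the knockout livers. KO 1 was the lowest and WT 1 the highest, with KO 2 nearly as high. The change was -0.16 ± 0.19 (SE; 95% interval -0.62 to 0.31, limma adjusted p = 0.887), so the interval allows a mean up to 0.62 lower or 0.31 higher. It was -0.45 within slide 1, where KO 1 is the only knockout array, and 0.042 within slide 2, where WT 3 is the only wild-type array. A second Ghr probe, annotated to another transcript of the gene, had a change of -0.31 ± 0.19 (SE; limma adjusted p = 0.815). The first probe minus the second was 0.26, 0.26 and 0.20 in wild type and 0.23, 0.39 and 0.56 in the knockout (exact permutation p = 0.3). KO 3 had the largest gap between the probes, and the genotypes overlapped in it.

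Stat5b, the transcription factor that carries the growth hormone signal to the nucleus, lay higher in every knockout liver. Wild-type levels were 2.44, 2.24 and 2.54 and knockout levels 2.57, 2.99 and 2.58. The gap was narrow, since the lowest knockout array stood 2.57 against 2.54 in the highest wild-type array, and KO 2 stood above the rest. The change was 0.31 ± 0.17 (SE; 95% interval -0.093 to 0.72, limma adjusted p = 0.814), or 1.24-fold. Within slides 1 and 2 it was 0.24 and 0.25, and without KO 2 it was 0.18. With normexp background correction, which distorted KO 1 and KO 2, it turned to -0.30. A second Stat5b probe had the same change of 0.31 ± 0.15 (SE; limma adjusted p = 0.806), and its genotypes did not overlap either. On that probe KO 2 and KO 3 both read 1.98, so KO 2 did not stand apart. With arrays centred on their median the genotypes overlapped, at 6.34 to 6.61 in wild type and 6.36 to 7.09 in the knockout. Stat5a, the close relative encoded by a neighbouring gene, had a change of 0.011 ± 0.24 (SE; limma adjusted p = 0.998).

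Socs2 and Cish encode proteins of the suppressor of cytokine signalling family that are induced by STAT5 and dampen the receptor, and both overlapped between genotypes. Socs2 read 0.97, 0.053 and 0.58 in wild type and 0.55, 1.06 and 1.77 in the knockout. WT 2 was the lowest array, KO 3 was the highest, and KO 1 fell inside the wild-type range. The change was 0.59 ± 0.37 (SE; 95% interval -0.29 to 1.47, limma adjusted p = 0.821), with 0.038 within slide 1 and 0.83 within slide 2. It was 0.27 without KO 3, 0.35 without WT 2 and 0.88 without KO 1. That Socs2 probe is printed in 10 spots on each array, and the spots of 1 array had an SD between 0.065 and 0.099, against SDs of 0.46 and 0.61 between the mice of the wild-type and knockout groups. The spread of Socs2 between livers was thus several times the spread between spots. Its other probes had changes of 0.49 ± 0.34 and 0.46 ± 0.35 (SE; limma adjusted p = 0.833 and 0.837) and the same order of extremes, with WT 2 lowest and KO 3 highest.

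Cish levels were 1.63, 1.63 and 0.99 in wild type and 0.96, 1.83 and 1.99 in the knockout. WT 3 and KO 1 were low and the other 4 livers high, so the levels split across the genotypes. The change was 0.18 ± 0.32 (SE; 95% interval -0.60 to 0.95, limma adjusted p = 0.933). It was -0.67 within slide 1 and 0.92 within slide 2, opposite in sign. Igfals, Ghr and Cish were all lowest on KO 1, as were Igfbp2 and Igfbp3, which makes 5 of the 10 members. Over all genes 20.3% were lowest on KO 1. For Ghr and Igfbp2 this depended on the probe. The second Ghr probe was lowest on KO 3, at 3.65 against 3.81 on KO 1. The second Igfbp2 probe was lowest on WT 2, at 2.95 against 3.06 on KO 1. With arrays centred on their median the first Ghr probe was also lowest on KO 3, at 7.99 against 8.03 on KO 1. KO 3 was the highest array for Igf1, Igfbp2, Socs2 and Cish, 4 of 10 members, and for 27.2% of all genes. Another Igf1 probe was highest on KO 2, at 4.21 against 4.02 on KO 3. With arrays centred on their median KO 2 was highest for Igf1 (9.44 against 9.34 on KO 3) and Cish (5.93 against 5.76).

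Of the 17 genes of the receptor's signalling list, KO 1 was the highest array for 5 and the lowest for 5, where 16.9% of all genes were highest there. Those named here were chosen after their values were seen. Socs3, the feedback gene of cytokine receptors that use STAT3, read 3.21 there and between 0.25 and 1.08 on the other arrays. Stat3 itself read 4.51 on KO 1 and 2.69 to 3.95 elsewhere. Socs1, another feedback gene of cytokine receptors, was lowest on KO 1, at -2.82 against -2.43 to -1.38, and so was the prolactin receptor Prlr, at 2.81 against 3.15 to 3.80. Neutrophil markers, 5 genes, had their highest sum on KO 1, at 5.84, followed by KO 3 at 5.23, with 2.53 to 3.93 on the others. Their part in the low Cish, Igfals and Ghr levels of KO 1 was not tested. Without KO 1 the changes of Cish, Igfals and Ghr were 0.49, -0.031 and -0.030. Without KO 2 those of Igfals and Ghr were -0.30 and -0.32.

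**Figure D2:**
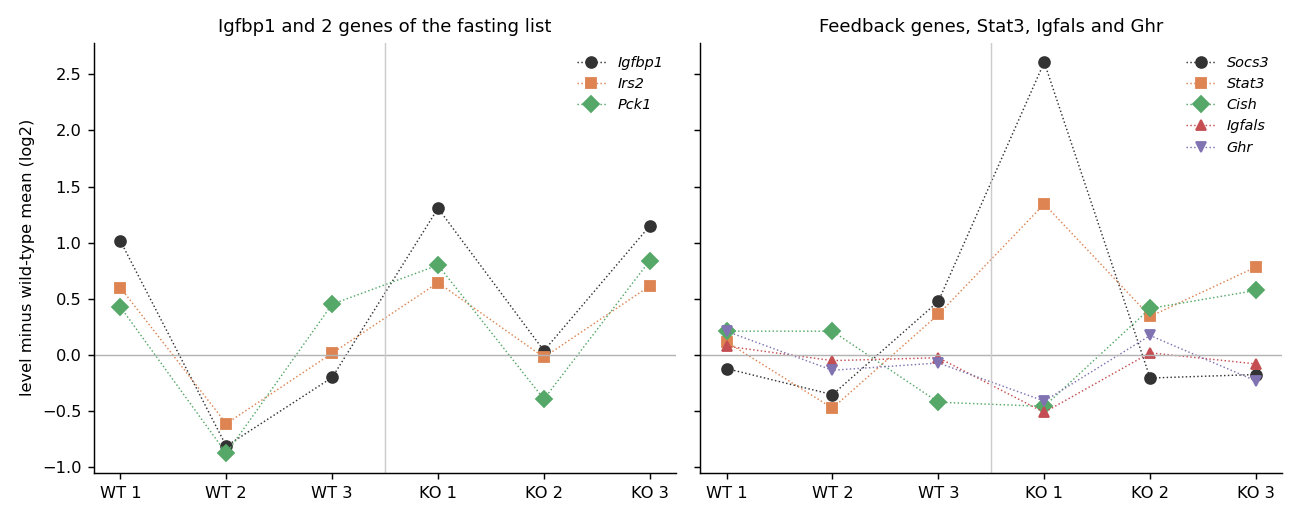
Level minus the wild-type mean of the same gene (log2, vertical axis) on each of the 6 arrays, for Igfbp1 with Irs2 and Pck1 (left) and for Socs3, Stat3, Cish, Igfals and Ghr (right). On the left WT 2 is the lowest point of all 3 genes. On the right KO 1 is the highest array for Socs3 and Stat3. It is the lowest for Cish, Igfals and the first Ghr probe, which is the one drawn.

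Igf1, the circulating growth factor, was the member with the smallest p. Its levels were 4.96, 5.0 and 5.15 in wild type and 5.20, 5.33 and 5.57 in the knockout. Every knockout liver lay above every wild-type liver and the genotype SDs were 0.099 and 0.18. The change was 0.33 ± 0.14 (SE; 95% interval -0.015 to 0.68), a 1.26-fold higher mean, with a limma unadjusted p of 0.0581, ranked 1265 among the 18004 genes, and an adjusted p of 0.813. The exact permutation p was 0.1, the smallest this design can give. The change was 0.22 within slide 1 and 0.30 within slide 2.

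Each of the 4 Igf1 probes gave wholly higher levels in the knockout. The other probes had changes of 0.38 ± 0.15, 0.19 ± 0.12 and 0.34 ± 0.13 (SE; limma adjusted p = 0.806, 0.820 and 0.806). Probes of 1 gene read the same RNA on the same arrays, so they are not further replicates. The direction held with quantile normalization (0.28) and with arrays centred on their median (0.25), but in the latter the genotypes overlapped, with WT 3 at 9.22 and KO 1 at 9.20. With the normexp correction that distorted KO 1 and KO 2 the change turned to -0.29. Without the muscle-marked arrays WT 1 and KO 3 the change of Igf1 was 0.20 ± 0.17 (SE), and those of Igfbp2, Socs2 and Cish, the other members highest on KO 3, were 0.37 ± 0.40, 0.49 ± 0.29 and 0.083 ± 0.39 (SE).

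**Figure D3:**
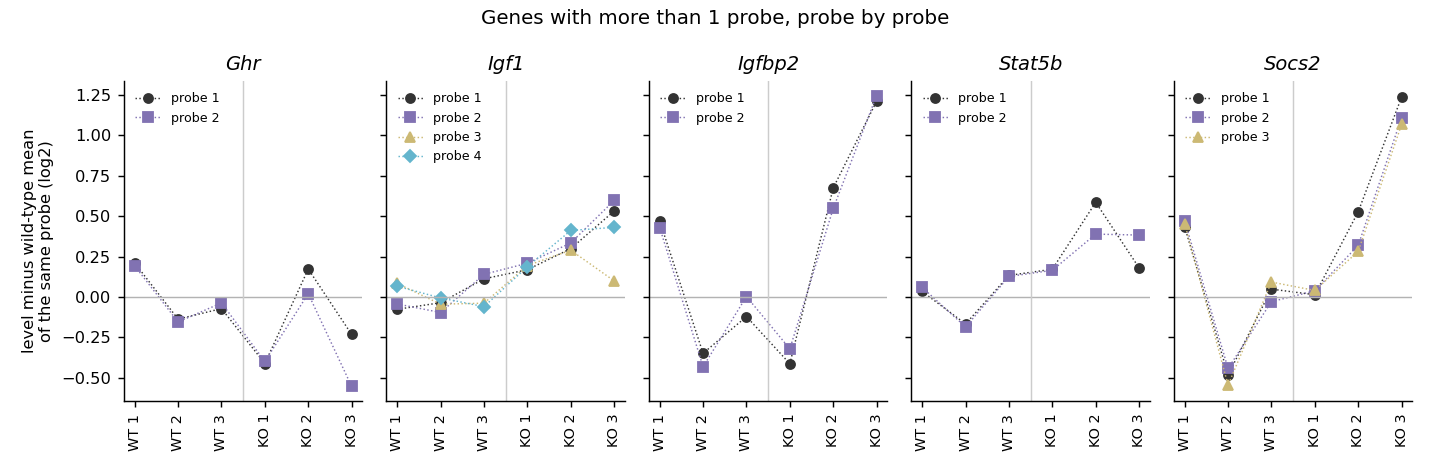
Level of every probe minus its own wild-type mean (log2, vertical axis) on the 6 arrays, for the 5 axis genes with more than 1 probe. All 4 Igf1 probes are higher on KO 1, KO 2 and KO 3 than on any wild-type array, though probe 3 only narrowly. The Ghr probes and the Igf1 probes part most on KO 3, where Igf1 probe 3 stands nearer its wild-type mean than the others.

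By Pearson correlation over the 6 arrays, the genes whose levels were most like those of Igf1 among 13593 genes with a symbol were Amacr, a racemase of branched-chain fatty acid breakdown (r = 0.989), Plekhg5 (r = 0.988) and Rpl22l1 (r = 0.986). The points are 6 arrays of both genotypes on 1 scaling, and with so many genes some resemble any pattern.

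Igfals encodes the acid-labile subunit, which holds IGF1 and IGFBP3 in the circulating complex. Its levels were 2.57, 2.44 and 2.47 in wild type and 1.98, 2.51 and 2.41 in the knockout. KO 1 stood alone below the other 5 livers, which lay between 2.41 and 2.57. The change was -0.19 ± 0.17 (SE; 95% interval -0.60 to 0.22, limma adjusted p = 0.854), with -0.53 within slide 1 and -0.0057 within slide 2. In sequence, Igfals was the 1 member of the 9 searched with letters of the STAT5 element TTCNNNGAA. Both strands of the 250 bases before a RefSeq start were searched. The promoter table of assembly GRCm38.p6 held 14 windows for 9 of the 10 members and none for Socs2, which was not searched. The element was in 7.02% of all 32851 windows. Both matches, from windows of different Igfals transcripts, are shown on the plus strand with 10 bases on each side and the element in capitals, since Igfals is a known STAT5 target. The first match begins 236 bases before its transcript's start and the second 58 bases before that of another.
Igfals, chr17:24877598-24877626: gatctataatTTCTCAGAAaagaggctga
Igfals, chr17:24878163-24878191: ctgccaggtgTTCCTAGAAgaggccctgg
A match is a description of letters, and binding was not tested.

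Igfbp1, the insulin-repressed binding protein that limits free IGF1, varied most between livers. It read 6.66, 4.83 and 5.44 in wild type and 6.95, 5.68 and 6.79 in the knockout. The lowest and highest livers differed 4.34-fold, and 4.31% of all genes had a larger SD within genotypes. WT 1, KO 1 and KO 3 were high and WT 2 low, so the genotypes overlapped. The change was 0.83 ± 0.54 (SE; 95% interval -0.46 to 2.12, limma adjusted p = 0.827), with 1.21 within slide 1 and 0.79 within slide 2. It was 0.42 without WT 2 and 1.34 without WT 1.

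The promoter of Igfbp1 holds the core of the insulin response element, CAAAACA, which FOXO1 is known to bind. It is shown because Igfbp1 was the most variable member, as the 250 bases before the RefSeq start on the plus strand of GRCm38.p6, with the core in capitals, 108 bases before the start.
Igfbp1, chr11:7197537-7197786: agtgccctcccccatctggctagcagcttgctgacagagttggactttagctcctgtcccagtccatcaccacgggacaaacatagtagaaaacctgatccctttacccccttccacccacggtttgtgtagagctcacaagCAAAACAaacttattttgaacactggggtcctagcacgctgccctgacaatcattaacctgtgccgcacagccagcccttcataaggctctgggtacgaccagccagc
Searched on both strands, those letters were in 5.56% of all windows and in none of the other member windows. Some genes of the FOXO1 and fasting list, named after their values were seen, shared the low array. Irs2, the insulin receptor substrate that FOXO1 induces in fasting, read 3.09, 1.87 and 2.50 in wild type and 3.13, 2.47 and 3.102 in the knockout. Pck1, the enzyme that commits carbon to glucose synthesis, read 6.49, 5.18 and 6.51 in wild type and 6.86, 5.67 and 6.90 in the knockout. WT 2 was the lowest array for all 3 genes, and it was lowest for 6 of the 12 measured genes of that list and for 18.8% of all genes. It was also highest for 3 of the 12, Fgf21 and Trib1 among them, and for 13.7% of all genes. Feeding before sacrifice is not given in the labels, and its part in the Igfbp1 levels was not tested. On that list 8 genes had a higher mean in the knockout and 4 a lower one, 0 passed in limma and 0 reached 0.05 before adjustment, with a median change of 0.069. Its smallest p-values belonged to Foxo1, with a change of 0.25 ± 0.15, Ppargc1a, a coactivator of glucose synthesis, with 0.26 ± 0.16 (SE; limma adjusted p = 0.821 for both), and Igfbp1.

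Igfbp2, a binding protein secreted by hepatocytes, had levels of 4.34, 3.52 and 3.75 in wild type and 3.46, 4.55 and 5.08 in the knockout. On this probe KO 1 was the lowest liver and KO 3 the highest, so the knockout range enclosed the wild-type range. The change was 0.49 ± 0.44 (SE; 95% interval -0.56 to 1.54, limma adjusted p = 0.853), and -0.47 within slide 1 against 1.06 within slide 2. It was 0.94 without KO 1 and 0.13 without KO 3. A second Igfbp2 probe had a change of 0.49 ± 0.42 (SE; limma adjusted p = 0.850). That probe was lowest on WT 2, at 2.95 against 3.06 on KO 1, so its knockout range did not enclose the wild-type range.

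Igfbp3, the main carrier of IGF1 in blood, which in liver is known mostly from non-parenchymal cells, read -1.04, -1.26 and -0.99 in wild type and -1.44, -0.73 and -0.81 in the knockout. KO 1 was again the lowest and KO 2 the highest. The change was 0.10 ± 0.22 (SE; 95% interval -0.42 to 0.63, limma adjusted p = 0.941), and its sign differed between slide 1 (-0.29) and slide 2 (0.23). Endothelial and stellate cell markers, 10 of 10 each above background, had summed levels that overlapped between the genotypes, at 5.88 to 6.16 and 6.40 to 6.52 in wild type and 5.79 to 6.40 and 6.40 to 6.52 in the knockout.

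Igfbp4, which binds IGF1 until the protease PAPP-A cleaves it, had the narrowest range of the 10 members. It read 2.83, 2.70 and 2.96 in wild type and 2.99, 2.66 and 2.58 in the knockout. The lowest and highest livers, KO 3 and KO 1, differed 1.32-fold. The change was -0.085 ± 0.16 (SE; 95% interval -0.46 to 0.29, limma adjusted p = 0.934), with 0.22 within slide 1 and -0.34 within slide 2. It was -0.21 without KO 1 and -0.0055 without KO 3.

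**Figure D4:**
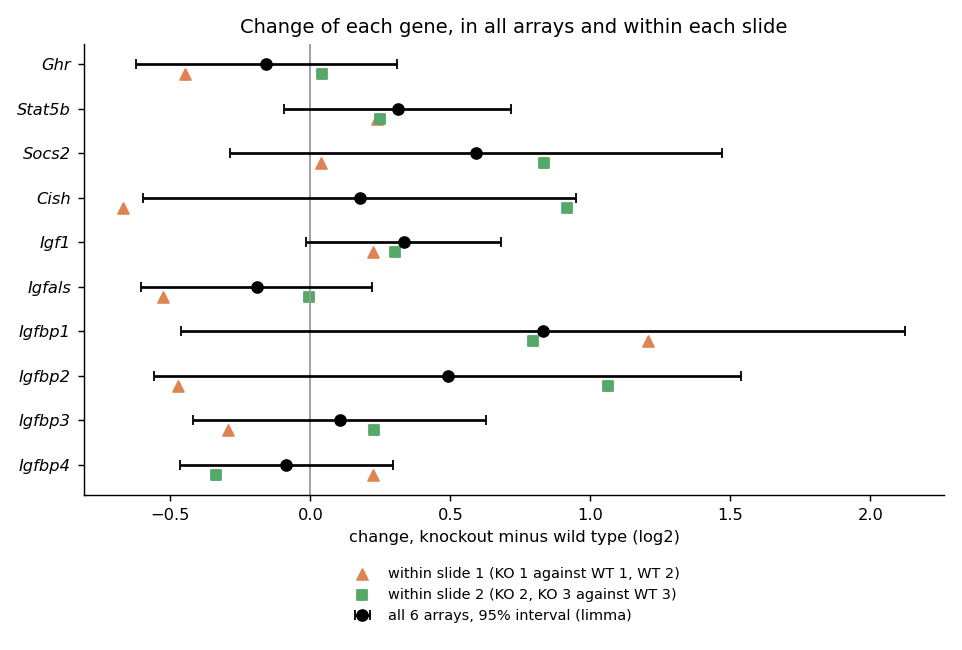
Change of each axis gene (knockout minus wild type, log2, horizontal axis) with its 95% interval from limma over all 6 arrays (black), and the change within slide 1 (triangles) and slide 2 (squares). Every interval includes 0, and Ghr, Cish, Igfbp2, Igfbp3 and Igfbp4 have opposite signs on the slides.

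Among the 17 genes of growth hormone receptor signalling, all measured, 9 had a higher mean in the knockout and 8 a lower one, 0 passed in limma, and 3 reached 0.05 before adjustment. The median change was 0.011. Sirpa, a receptor that recruits phosphatases to JAK2 and is abundant on macrophages, had a change of -0.60 ± 0.22 (SE; limma adjusted p = 0.813), and its genotypes overlapped. The Kupffer cell markers also had lower knockout means, with summed levels that overlapped. Their part in the Sirpa value was not tested. Stat3 had a change of 0.82 ± 0.32 (SE; limma adjusted p = 0.813), which was 1.52 within slide 1 and 0.20 within slide 2. Jak2, the kinase on the receptor, had a change of 0.15 ± 0.12 (SE; limma adjusted p = 0.848).

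Of 15 growth hormone responsive hepatocyte genes, Igf1, Igfals, Socs2 and Cish included, 10 had a higher mean and 5 a lower one, 0 passed in limma and 2 reached 0.05 before adjustment, with a median change of 0.084. Serpina3k, a serine protease inhibitor gene under STAT5 control, read 7.04, 6.92 and 7.13 in wild type and 7.93, 7.58 and 8.17 in the knockout. It was higher in every knockout liver, with a change of 0.86 ± 0.18 (SE; limma adjusted p = 0.813), and the gene belongs to a family of close copies that a probe may not tell apart. Egfr, the epidermal growth factor receptor, read 0.93, 1.06 and 2.08 in wild type and 5.0, 2.09 and 2.71 in the knockout. Its change of 1.91 ± 0.76 (SE; limma adjusted p = 0.813) was 4.01 within slide 1 and 0.33 within slide 2, and KO 2 lay barely above WT 3.

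On the list of 10 IGF ligands, receptors and adaptors, 8 were measured, 7 of them with a higher mean in the knockout and 1 with a lower one. None passed in limma, 1 had an unadjusted p under 0.05, and the median change was 0.24. Insr, the insulin receptor, read 0.27, 0.35 and 0.30 in wild type and 0.67, 0.78 and 0.50 in the knockout. Its genotypes did not overlap, with a change of 0.34 ± 0.13 (SE; limma adjusted p = 0.813) that was 0.36 and 0.34 within slides 1 and 2. Igf1r, the IGF1 receptor, had a change of 0.34 ± 0.18 (SE; limma adjusted p = 0.813) with overlap. Igf2, which the mouse liver silences after birth, did not pass the background filter and was above background on 1 array, in the knockout group. It read -5.17 on KO 3, the array with high muscle and fat marker sums, and -7.79 to -7.10 on the other arrays. On the list of 15 binding proteins and proteases, 11 were measured, 8 higher and 3 lower, 0 past the threshold in limma and 0 under 0.05 before adjustment, with a median change of 0.24. Igfbp5 had a change of 0.63 ± 0.33 and Igfbp6 one of 1.04 ± 0.66 (SE; limma adjusted p = 0.813 and 0.827), and both were highest on KO 3, the array with the highest fat and muscle marker sums. The part of those tissues in these values was not tested.

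The liver reads the temporal pattern of growth hormone through STAT5B, and in mice this sets many genes at different levels in males and females. Xist, the RNA of the inactive X chromosome, was well above background on all 6 arrays with both probes, and the 5 probes of the 4 Y-linked genes Ddx3y, Eif2s3y, Kdm5d and Uty were above background on 0 arrays. Xist read 0.22, 0.14 and 0.077 in wild type and 0.51, 0.78 and 0.34 in the knockout, a change of 0.40 ± 0.15 without overlap (SE; limma adjusted p = 0.813). All 22 female-biased liver genes with a probe were well above background on every array, as were 12 of 19 male-biased genes. The filter kept all 22 and 13 of the 19, beside 18004 of the 32095 genes tested without a filter. Hsd3b5, Cyp4a12a, Cyp4a12b and Slco1a1, male-biased genes of steroid and fatty acid metabolism and of anion uptake, were among the 6 that it left out.

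**Figure D5:**
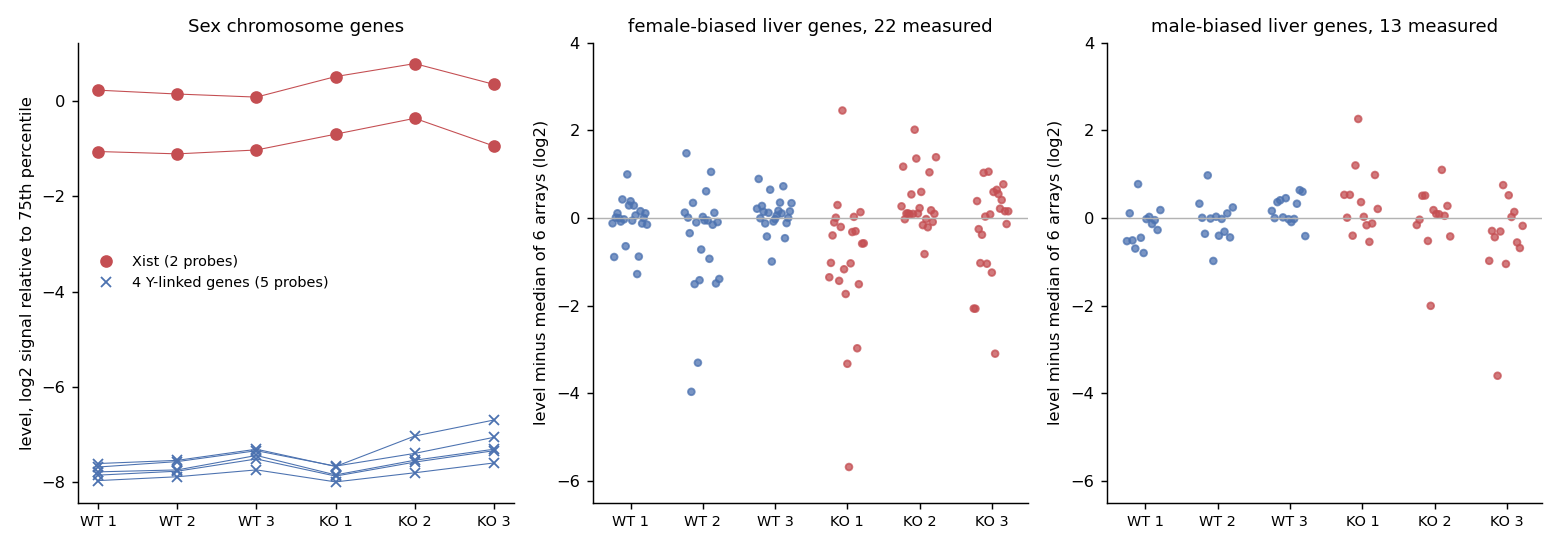
Left, levels of Xist and of 4 Y-linked genes on each array (log2 signal relative to the 75th percentile); middle and right, levels of 22 female-biased and 13 male-biased liver genes minus the gene's median over the 6 arrays (log2), 1 point per gene. Both Xist probes were above background on all 6 arrays and the 5 Y-linked probes on 0, and the lowest female-biased point, Hao2, is on KO 1.

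Of the 22 female-biased genes, 7 had a higher mean in the knockout and 15 a lower one, with a median change of -0.12, 0 past the threshold in limma and 1 at an unadjusted p under 0.05. Cyp4a14, a fatty acid hydroxylase, read 6.99, 7.32 and 6.87 in wild type and 5.67, 6.54 and 3.61 in the knockout. It was lower in every knockout liver, with a change of -1.78 ± 0.70 (SE; limma adjusted p = 0.813). Cyp2b9 had a change of -1.12 ± 0.56 and Atp6v0d2 one of 0.88 ± 0.37 (SE; limma adjusted p = 0.813 for both), with overlap. Cyp2a4, Sult2a1 and Hamp2 had changes of -0.017 ± 0.21, -0.022 ± 0.14 and -0.35 ± 1.00 (SE; limma adjusted p = 0.994, 0.985 and 0.958). KO 1, the array with the lowest Igfals and the lowest level of the first Ghr probe, was the lowest for 8 of the 22, and WT 2 for 7. Among the genes lowest on KO 1 was Hao2, a hydroxy acid oxidase named after its values were seen, which read 2.34, 2.34 and 2.45 in wild type, -3.29 on KO 1, and 2.99 on both KO 2 and KO 3.

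Of the 13 male-biased genes that passed the filter, 6 had a higher mean in the knockout and 7 a lower one, with a median change of -0.013, 0 past the threshold in limma and 0 under 0.05 before adjustment. Serpina1e, an alpha-1-antitrypsin gene with near-identical copies, had a change of 0.39 ± 0.19, Susd4 one of -0.44 ± 0.24 and Elovl3, a fatty acid elongase, one of -1.39 ± 1.06 (SE; limma adjusted p = 0.813, 0.814 and 0.839). Elovl3 was well above background in 3 wild-type and 2 knockout livers, so it passed the filter through wild type alone. It read -7.27 on KO 3. Its levels on KO 1 and KO 2, -4.07 and -3.16, lay inside the wild-type range of -4.37 to -2.70. Ugt2b38 and Mup20 had changes of -0.013 ± 0.12 and -0.19 ± 0.41 (SE; limma adjusted p = 0.992 and 0.943). Serpina1e was the gene of this list whose genotypes did not overlap, higher in the knockout.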

How the data were processed

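Total RNA from frozen liver was labelled with Cy3 and run on 1-colour Agilent arrays, per the labels' protocols. The deposited scanner tables hold intensity values that Agilent Feature Extraction had background-subtracted per the file headers (version 11.5.1.1 there, 10.7.3.1 per the submitters' processing notes). A matrix of log2 values that the authors deposited, with 20644 probes, was an alternative. Its KO 2 and KO 3 columns matched the scanner values of KO 3 and KO 2, which leaves the genotype comparison unchanged.

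Each intensity was taken as log2 minus the array's 75th percentile, leaving out 1377 control spots and 818 outlier spots per the deposited marks. Spots of a probe were averaged, and 28330 of 39429 probes had 1 symbol in the GRCm38.p6 gene table. Probes well above background in all 3 mice of either genotype were kept. limma 3.58.1 (lmFit, eBayes, R 4.3.3, two-sided, Benjamini-Hochberg over all genes, threshold 0.05) compared the genotypes without covariates, and the procedure was tested on simulated data. Slide 1 held WT 1, WT 2 and KO 1, and slide 2 held WT 3, KO 2 and KO 3. Alternatives were background correction, scaling, filter, probe rule, slide or replicate blocks, array weights and arrays left out.

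The members and lists were chosen with earlier results of these data known. Named are all members, the 3 genes of smallest p per list, the 3 of highest signal per sex-biased list (a rule for naming, not a rank of abundance), the sex chromosome genes, the 3 most like Igf1 and the targeted gene, with exceptions marked in the text and 1 gene the rule takes not reported here; Stat5a and Jak2 were added as the relative and the kinase of STAT5B.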

Additional observations from a re-analysis of the deposited data

How the results depend on the processing

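None of the 10 axis genes passed the adjusted threshold under any of the 20 alternatives run for them, and 0 of their 18 probes did so where probes were refitted (slide or replicate block, each array left out). The count of all genes past the threshold, 1, went to 0 with either normexp correction, with the filter on all 6 arrays and without the muscle-marked arrays, and lay between 0 and 1 with each array left out, at 1 only without WT 3. Normexp, planned on the mean signal, used the median signal since no mean column was read, and it distorted KO 1 and KO 2, whose lowest percentile came to log2 8.18 and 9.63 against 5.75 to 5.97 elsewhere. A trimmed version was chosen after seeing the data. With the planned normexp the changes turned to -0.38 for Cish, -0.29 for Igf1, -0.14 for Igfbp2 and -0.30 for Stat5b, and moved to -0.86 for Igfals, -0.80 for Igfbp4, -0.70 for Ghr, 0.30 for Igfbp3, 0.22 for Socs2 and 0.19 for Igfbp1, with Igfals and Igfbp4 wholly lower and Igfbp3 wholly higher in the knockout. Cish ranged from -0.035 without WT 3 and -0.023 without KO 3 to 0.49 without KO 1, and Igfbp3 from -0.027 without KO 2 to 0.33 without KO 1, and was -0.033 with the slide as a block. Within slide 1 the sign turned for Cish (-0.67), Igfbp2 (-0.47), Igfbp3 (-0.29) and Igfbp4 (0.22), and within slide 2 for Ghr (0.042). The causes were not tested.

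Same-numbered samples did not deviate together (correlations of -0.19, 0.042 and -0.28), and 1 of 3 wild-type arrays correlated best with its own number. So few correlations cannot decide whether the numbers pair mice, and the deposited matrix has KO 2 and KO 3 exchanged. With the replicate block 0 genes passed and the Igf1 change stayed 0.33. The Igfbp1 change stayed 0.83, but its SE was 0.24 in place of 0.54. Its limma p was 0.0214 before adjustment and 0.771 after. With 3 mice a genotype, the intervals allow changes of both signs for all 10 axis genes.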
